A study of Mus musculus with 23 samples.

Results

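AP-1 is the dimeric transcription factor formed by proteins of the FOS and JUN families, and 7 of its genes (Fos, Fosb, Fosl2, Jun, Junb, Jund and Atf3) were followed here by their symbols across whole mouse hippocampus, out of 55335 genes in the count table. RNA sequencing covered 23 libraries of female mice in 6 groups. The WT mice were of strain C57BL/6J x 129S1. The 3xTg model of Alzheimer's disease carries human APP and tau transgenes with the Swedish and P301L mutations, which a Thy1 element drives in neurons. Untreated mice were 8 months old and made up the groups WT-8M and 3xTg-8M, each with n = 4. The other mice were 10 months old and had carried for 28 days a pump that infused the lateral ventricle at 0.11 µl/h. The pump held either 80 µM of an inhibitor (SCDi, ab142089) of stearoyl-CoA desaturase, which introduces a double bond into saturated fatty acids, or vehicle with 0.8% DMSO, both in artificial cerebrospinal fluid. Vehicle mice formed the groups WT-D and 3xTg-D (n = 4 each), and inhibitor mice the groups WT-S (n = 3) and 3xTg-S (n = 4). The study's question for these libraries was which hippocampal genes differ in 3xTg mice and which of them respond to SCDi.

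AP-1 binds DNA as a dimer through a basic leucine zipper, and its FOS proteins need a JUN partner whereas JUN proteins can also pair with each other. In hippocampal neurons calcium entry and ERK signalling switch on Fos, Fosb and Junb within minutes through factors such as SRF and CREB, and the transcripts are short-lived, which is why they are read as marks of recent neuronal activity. Jund is made more steadily, Jun is also a target of the JNK stress pathway, Fosl2 encodes FRA-2, and Atf3 is a stress- and injury-induced partner.

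To show regulatory letters found in some of these promoters, stretches of 72 bases upstream of the start were read from the RefSeq promoter table (GRCm38.p6), in which 7 of 7 members had an entry of 300 bases. Each entry covers 250 bases before the RefSeq start and 50 bases from it on, and sequence farther upstream was not searched. The motifs searched on both strands were TGACG (the core of a CREB site) and TGACNTCA (a full CREB or JUN:ATF site, which holds TGACG when N is G). Also searched were TGANTCA, which is the AP-1 site when N is C or G but was matched with any base at N, and the CArG box bound by SRF. TGACG stood in 4 of 7 member promoters and in 20.8% of 32817 promoters, TGACNTCA in 1 of 7 and 8.84%, TGANTCA in 0 of 7 and 7.81%, and the CArG box in 0 of 7 and 1.63%. The stretches that hold a match are printed on the strand of the gene with the match in capitals. They come from chr12:85473791-85473862 (+) for Fos, chr7:19310067-19310138 (-) for Fosb, chr8:84978816-84978887 (-) for Junb, chr4:95052228-95052299 (-) for Jun and chr1:191183334-191183405 (-) for Atf3.
Fos: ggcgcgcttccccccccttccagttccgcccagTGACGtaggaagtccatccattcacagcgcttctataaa
Fosb: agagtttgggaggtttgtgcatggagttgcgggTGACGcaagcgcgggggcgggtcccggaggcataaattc
Junb: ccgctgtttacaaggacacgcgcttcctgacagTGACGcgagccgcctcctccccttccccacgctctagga
Jun: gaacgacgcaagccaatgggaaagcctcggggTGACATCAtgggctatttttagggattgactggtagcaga
Atf3: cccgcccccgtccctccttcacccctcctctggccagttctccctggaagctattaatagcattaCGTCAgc
The capitals lie at -66 to -62 from the start in Fos, -60 to -56 in Fosb, -106 to -102 in Junb, -45 to -38 in Jun and, on the other strand, -7 to -3 in Atf3. Fos held a further TGACG at -129 to -125. Positions are counted from the RefSeq start of that table. For Atf3 this start lies inside the Gencode gene, whose outermost start is at 191218039, and for Fosl2 it also lies inside the gene. The windows of Fosl2 and Jund held none of these letters, and that of Jund (chr8:70697489-70697788) lay upstream of the start its gene has in the Gencode annotation (70698949). A match of letters is not a measured binding site.

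Gene counts per library ran from 12.8M to 36.7M at 8 months and from 12.99M to 17.6M at 10 months, which puts the 7 members between 6 and 3849 counts in a library. Libraries of a group correlated across genes with r from 0.995 to 0.997, and 0 pairs were identical. Counts were present for 6 of 6 neuronal, 3 of 3 dentate granule cell and 2 of 2 CA1 markers. They were also present for 3 of 3 thalamus and 7 of 7 choroid plexus markers, so detection alone cannot test the tissue label. Summed levels were 5363 to 6254 CPM (counts of a gene scaled to a common library size) for the neuronal list and 193 to 265 CPM for the CA1 list. The thalamus list summed to 45.5 to 83.5 CPM. The dentate granule list summed to 139 to 206 CPM in 3xTg-8M and 217 to 236 CPM in WT-8M, to 176 to 215 CPM in 3xTg-D and 213 to 281 CPM in WT-D, and to 152 to 218 CPM in 3xTg-S and 245 to 266 CPM in WT-S. The choroid plexus list had a median of 41.3 CPM. It summed to 370 CPM in replicate 4 of 3xTg-8M, 359 CPM in replicate 2 of WT-S and 246 CPM in replicate 2 of 3xTg-S. Replicates 1 and 3 of 3xTg-D followed at 113 and 123 CPM, where WT-D had 33.3 to 42.4 CPM. In whole tissue, fewer cells of a type and less RNA per cell cannot be told apart.

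Per length of transcript, the order of the members was the same whether read from their mean or from most single libraries. Mean RPKM over the 23 libraries was 39.0 ± 4.33 (SD) for Jund, 33.5 ± 3.05 for Jun and 18.4 ± 4.23 for Junb, then 8.53 ± 1.18 for Fosl2, 4.16 ± 2.82 for Fos, 1.78 ± 0.346 for Fosb and 0.510 ± 0.164 for Atf3. All 3 JUN genes thus stood above the FOS genes and Atf3 in the mean. Within a library Jund exceeded Jun in 20 of 23, Fosl2 exceeded Fos in 22 of 23 and Fos exceeded Fosb in 21 of 23, while Jun over Junb, Junb over Fosl2 and Fosb over Atf3 held in 23 of 23. Jund and Jun overlapped in range (32.6 to 49.8 against 27.9 to 39.1 RPKM), as did Fosl2 and Fos (5.96 to 10.4 against 1.18 to 11.6 RPKM) and Fos and Fosb (1.09 to 2.55 RPKM for Fosb). Values from here on are CPM on one scale over the 23 libraries.

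**Figure D1:**
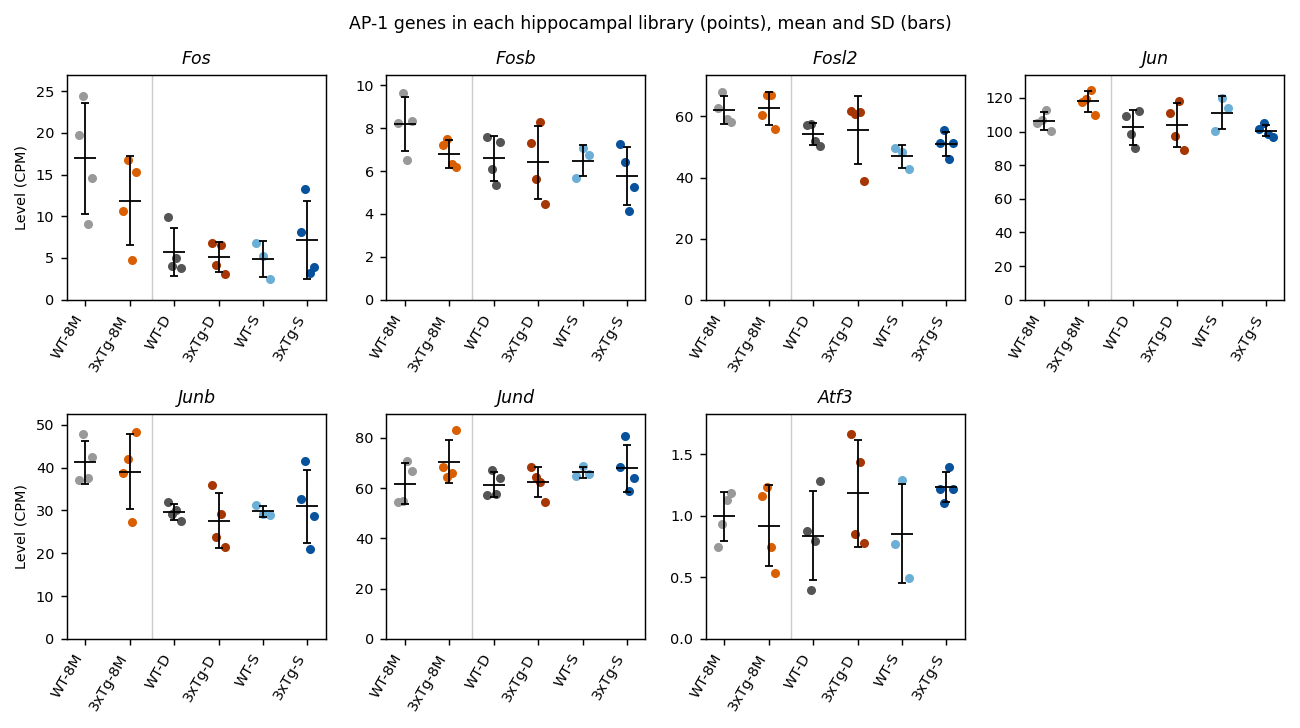
Level (CPM, linear axis from 0) of each AP-1 gene in every library, with points for libraries in the order of their replicate number, a dash for the group mean and bars for the SD. The grey line parts untreated mice of 8 months (left) from infused mice of 10 months (right). Fos spans 2.49 to 24.4 CPM and Jun 89.0 to 125 CPM.

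Fos (ENSMUSG00000021250.13, chr12:85473890-85477273), the best known activity-induced member, varied most between mice. In replicate order it stood at 19.8, 24.4, 9.01 and 14.5 CPM in WT-8M and at 10.7, 16.7, 4.81 and 15.3 CPM in 3xTg-8M. The groups overlapped, with replicate 3 lowest in each, and the log2 fold change was -0.52 (SE 0.34, 95% interval -1.26 to 0.22, adjusted p = 0.448). At 10 months Fos was at 9.97, 4.08, 4.94 and 3.74 CPM in WT-D and at 6.80, 4.13, 6.53 and 3.04 CPM in 3xTg-D. Replicate 1 of WT-D stood above all of 3xTg-D and the other 3 lay within its range, so the log2 fold change was -0.16 (SE 0.32, -0.86 to 0.55, adjusted p = 0.902). Under SCDi it was at 6.83, 5.25 and 2.49 CPM in WT-S and at 8.16, 13.3, 3.24 and 3.92 CPM in 3xTg-S. Replicate 2 of 3xTg-S was the highest of all infused libraries. The log2 fold change of 3xTg-S versus 3xTg-D was 0.49 (SE 0.39, -0.36 to 1.34, adjusted p = 0.638), and without that library it was 0.0097. The same library had the highest blood marker sum of the 23 (209 CPM, median 35.2), the highest oligodendrocyte sum (5204 CPM) and the lowest neuronal sum (5363 CPM), besides the choroid plexus sum given earlier, and their part in its Fos and Junb levels was not tested. In WT the inhibitor gave -0.24 (SE 0.39, -1.10 to 0.62, adjusted p = 0.983), and the difference between the strains in this response was 0.73 (SE 0.62, -0.58 to 2.04).

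Fosb (ENSMUSG00000003545.3, chr7:19302696-19310051), whose truncated product delta-FosB is stable and builds up with repeated activity, was the lowest of the FOS genes per length of transcript, although its mean CPM exceeded that of Fos in WT-D (6.59 and 5.68), 3xTg-D (6.42 and 5.13) and WT-S (6.49 and 4.85). At 8 months it stood at 8.25, 9.63, 6.53 and 8.35 CPM in WT-8M and at 7.23, 7.47, 6.31 and 6.20 CPM in 3xTg-8M. Only replicate 3 of WT-8M reached into the 3xTg range, and the log2 fold change was -0.26 (SE 0.13, -0.55 to 0.03, adjusted p = 0.330). At 10 months it was at 7.58, 6.08, 5.34 and 7.36 CPM in WT-D, and the 3xTg-D libraries bracketed these at 7.30, 5.64, 8.27 and 4.46 CPM. Under SCDi it was at 5.66, 7.05 and 6.75 CPM in WT-S and at 7.25, 6.44, 4.12 and 5.27 CPM in 3xTg-S. All 4 infused groups overlapped, and the inhibitor over both strains gave a log2 fold change of -0.09 (SE 0.14, -0.38 to 0.20, adjusted p = 0.811). Counts are per gene, so the full-length and truncated transcripts were not separated.

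Fosl2 (ENSMUSG00000029135.10, chr5:32135801-32157842) had values that did not overlap in 1 of the 6 pairs of groups compared, WT-S and WT-D, and no other member had such a pair. It stood at 57.1, 57.6, 52.0 and 50.2 CPM in WT-D and at 49.7, 48.2 and 42.8 CPM in WT-S. Every WT-S library lay below every WT-D library, with a gap of less than 1 CPM between the nearest. The log2 fold change was -0.21 (SE 0.08, -0.38 to -0.04), with an unadjusted p of 0.0215 and an adjusted p of 0.981 in edgeR's quasi-likelihood test, which is not a call. In that comparison 1.94% of 15724 genes were lower without overlap between the groups, and 3.42% had an unadjusted p under 0.05. In 3xTg mice it was at 61.7, 60.7, 61.4 and 39.0 CPM with vehicle and at 51.4, 55.5, 45.9 and 51.4 CPM with SCDi. The 4 treated values lay below 3 of the vehicle values and above the fourth, which is replicate 4 of 3xTg-D. The log2 fold change was -0.12 (SE 0.13, -0.40 to 0.15, adjusted p = 0.714), and it was -0.26 without that library. Over both strains the inhibitor gave -0.16 (SE 0.08, -0.33 to 0.01, adjusted p = 0.385). With each library left out in turn this ran from -0.24 to -0.13 over 15 fits. The lowest value, without replicate 4 of 3xTg-D, had an adjusted p of 0.222 in edgeR and was not a call either. That library was singled out by its own Fosl2 value, so the fit without it is a description only. The difference between strains in this response was 0.09 (SE 0.17). Fosl2 has the longest transcript of the members (6537 bases). Long transcripts stood lower relative to short ones with SCDi in both strains, by the slopes given under Jund. The part of this in Fosl2 was not tested. Untreated mice had 62.8, 68.1, 59.1 and 58.1 CPM in WT-8M and 60.3, 67.1, 67.1 and 56.0 CPM in 3xTg-8M, which overlapped throughout (log2 fold change 0.02, SE 0.08, adjusted p = 0.934).

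Jun (ENSMUSG00000052684.4, chr4:95049034-95052222), the JNK substrate and the usual partner of FOS, was the least variable member. Before treatment it stood at 105, 107, 113 and 100.2 CPM in WT-8M and at 118, 119, 125 and 109.9 CPM in 3xTg-8M. All 3xTg libraries except replicate 4 lay above the WT range. The log2 fold change was 0.15 (SE 0.06, 0.02 to 0.29), with an unadjusted p of 0.0323 and an adjusted p of 0.243, so it was not called. At an unadjusted p under 0.05 the same comparison held 17.4% of 15483 genes. At 10 months the vehicle groups ran from 90.0 to 112 CPM in WT-D and from 89.0 to 118 CPM in 3xTg-D, with a log2 fold change of 0.01 (SE 0.09, -0.19 to 0.21, adjusted p = 0.976). Under SCDi Jun was at 100.2, 119.8 and 114 CPM in WT-S and at 102, 105, 98.9 and 97.0 CPM in 3xTg-S. Replicate 1 of WT-S fell inside the 3xTg-S range, and the log2 fold change of 3xTg-S versus WT-S was -0.15 (SE 0.07, -0.30 to 0.01, adjusted p = 0.511). The exons share 232 bases with the antisense gene Junos, which had 405 counts in all against 41780 for Jun.

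Junb (ENSMUSG00000052837.6, chr8:84974484-84978718), an inducible JUN gene whose product can oppose JUN at some promoters, followed Fos from mouse to mouse. It stood at 37.1, 47.9, 37.6 and 42.4 CPM in WT-8M and at 38.9, 42.0, 27.2 and 48.2 CPM in 3xTg-8M. The 3xTg range enclosed the WT range, with replicate 3 lowest as it was for Fos (log2 fold change -0.07, SE 0.14, adjusted p = 0.828). At 10 months the WT groups were narrow, at 31.9, 29.3, 30.2 and 27.5 CPM in WT-D and 31.3, 29.1 and 28.9 CPM in WT-S. The log2 fold change between them was 0.00234 (SE 0.07, -0.16 to 0.16). The 3xTg groups were wide, at 35.9, 23.8, 29.2 and 21.6 CPM in 3xTg-D and 32.8, 41.6, 21.0 and 28.7 CPM in 3xTg-S. They overlapped, with replicate 2 of 3xTg-S again the highest infused library, and the log2 fold change was 0.17 (SE 0.19, -0.24 to 0.58, adjusted p = 0.738), which was -0.00247 without that library. Junb shares 173 exon bases with Prdx2 on the opposite strand, which had 60213 counts against 13264, and whether reads were counted by strand is not given in the sources used here.

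Jund (ENSMUSG00000071076.6, chr8:70698949-70700616), the JUN gene with the highest mean RPKM, had levels of 54.5, 55.0, 70.8 and 66.9 CPM in WT-8M and 68.4, 64.4, 65.9 and 83.0 CPM in 3xTg-8M. The ranges overlapped, replicate 4 of 3xTg-8M was the highest of all 23 libraries, and the log2 fold change was 0.19 (SE 0.11, -0.04 to 0.42, adjusted p = 0.375). At 10 months it was at 57.1, 67.0, 57.8 and 63.8 CPM in WT-D and at 68.5, 64.5, 62.2 and 54.4 CPM in 3xTg-D, and no order between them could be read (0.02, SE 0.08, adjusted p = 0.962). Under SCDi it stood at 64.7, 68.8 and 65.5 CPM in WT-S and at 68.2, 80.8, 58.9 and 64.0 CPM in 3xTg-S. Over both strains the inhibitor gave a log2 fold change of 0.12 (SE 0.06, -0.01 to 0.25, adjusted p = 0.422). Replicate 4 of 3xTg-8M and replicate 2 of 3xTg-S held the highest Jund levels. They also had the lowest slopes of log2 CPM on log2 transcript length, 0.94 and 0.963, where the other 21 libraries had 1.02 to 1.11. Both were among the 3 libraries with the highest choroid plexus sums. The slopes were lower with SCDi than with vehicle without overlap, at 1.021 to 1.063 in WT-S and 1.065 to 1.084 in WT-D. In 3xTg-S they were 0.963 to 1.066 and in 3xTg-D 1.084 to 1.112. Jund has the shortest transcript of the members (1668 bases). After group means were taken off, the slope correlated with Jund at r = -0.74 and with the other members at -0.57 to 0.27. The part of slopes and choroid plexus sums in the Jund levels was not tested. Jund shares 877 exon bases with the antisense gene Gm11175, which had 1155 counts against 25234.

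Atf3 (ENSMUSG00000026628.13, chr1:191170296-191218039) was near the detection limit of these libraries, with 6 to 38 counts in each. It stood at 0.745, 0.934, 1.13 and 1.18 CPM in WT-8M and at 1.16, 1.23, 0.751 and 0.539 CPM in 3xTg-8M. At 10 months it was at 0.874, 0.401, 0.800 and 1.29 CPM in WT-D and at 1.66, 0.852, 1.44 and 0.778 CPM in 3xTg-D, and these groups overlapped (log2 fold change 0.47, SE 0.35, -0.30 to 1.25, adjusted p = 0.635). Under SCDi it was at 0.776, 1.30 and 0.497 CPM in WT-S and at 1.22, 1.11, 1.40 and 1.22 CPM in 3xTg-S. The 3xTg-S libraries were close together, and replicate 2 of WT-S reached into their range (0.52, SE 0.32, -0.19 to 1.23, adjusted p = 0.648). The intervals of its 6 pairwise log2 fold changes reached from -0.94 to 1.25.

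No AP-1 gene passed the test in any comparison of groups. With edgeR's quasi-likelihood test and Benjamini-Hochberg adjustment over all genes tested, 0 of 7 members were called at an adjusted p under 0.05 in any of the 6 pairwise comparisons, in the inhibitor effect over both strains or in the interaction of strain and inhibitor. Of all genes, 2.58% were called between the strains at 8 months, 1.39% between them under vehicle, 1.32% under SCDi and 2.29% between 3xTg-S and WT-D. The share was 0% for SCDi in 3xTg mice, for SCDi in WT mice, for the inhibitor over both strains and for the interaction. At an unadjusted p under 0.05 the members gave 1 of 7 for 3xTg-8M versus WT-8M (Jun), 1 of 7 for WT-S versus WT-D (Fosl2) and 0 of 7 in the other 6 comparisons. All genes gave 17.4% and 3.42% at that level in these comparisons. For the strains they gave 13.1% under vehicle and 10.6% under SCDi, for 3xTg-S they gave 11.2% beside 3xTg-D and 16.9% beside WT-D, and for the inhibitor over both strains and the interaction 13.6% and 2.32%. DESeq2's likelihood ratio test also called 0 of 7 members in each of the comparisons.

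**Figure D2:**
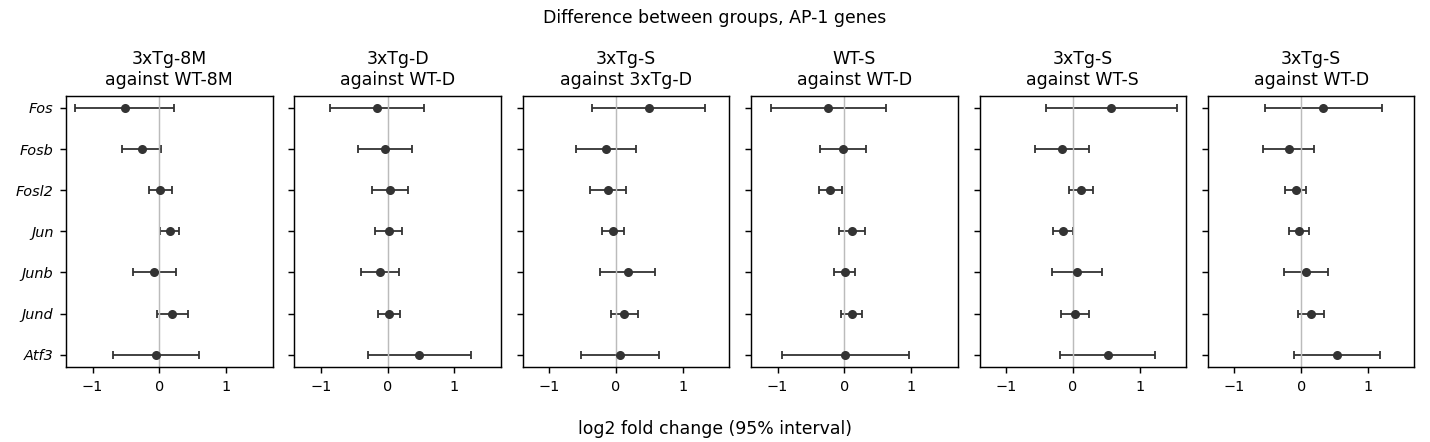
Log2 fold change of each AP-1 gene (point) with its 95% interval (bar) in the 6 pairwise comparisons, from edgeR; the grey line marks no difference. The intervals of Jun, Jund and Fosl2 are narrow and those of Fos and Atf3 wide, and only Jun in 3xTg-8M versus WT-8M and Fosl2 in WT-S versus WT-D have intervals that leave out 0.

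The width of these intervals set what could be seen. For 3xTg-D versus WT-D the interval of Jun was -0.19 to 0.21 and that of Jund -0.15 to 0.19, whereas that of Fos was -0.86 to 0.55. The median log2 fold change of the members was -0.05 in 3xTg-8M versus WT-8M, 0.01 in 3xTg-D versus WT-D, 0.06 in 3xTg-S versus 3xTg-D and 0.00234 in WT-S versus WT-D. Over all genes tested the medians of these comparisons were 0.00596, -0.00286, -0.00206 and 0.00167. The members were lower in 4 of 7, 3 of 7, 3 of 7 and 3 of 7 cases, against 48.7%, 51%, 50.5% and 49.4% of all genes. 3xTg-D enters more than one of these comparisons, as does WT-D, so their values share libraries.

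Fos and Junb were the members whose medians differed most, as a ratio, between untreated and infused mice. Fos ran from 4.81 to 24.4 CPM (median 14.9) in the 8 untreated libraries and from 2.49 to 13.3 CPM (median 4.94) in the 15 infused ones. Junb ran from 27.2 to 48.2 CPM (median 40.4) and from 21.0 to 41.6 CPM (median 29.2). Fosl2 had medians of 61.6 and 51.4 CPM, Jun of 111 and 102 CPM, Jund of 66.4 and 64.5 CPM, Fosb of 7.35 and 6.44 CPM and Atf3 of 1.03 and 1.11 CPM. No test was made, because age and surgery with infusion cannot be told apart between these sets. The sample titles differ as well, reading L.HPP for the untreated mice and HPP for the infused ones, and depth reached higher in the untreated set.

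Fos was also variable for a gene of its abundance. The pooled SD of its log2 CPM within groups was 0.72, above that of 97.9% of 16555 genes and of 98.2% of the 501 genes nearest in level, whose median was 0.18. Counting alone gives 0.15 at its median of 94 counts. Junb had 0.28, above 97.4% of the genes nearest in level (median 0.11), with 0.07 from counting. Fosl2 (0.17) lay above 90.0% of its neighbours, Jund (0.15) above 88.0%, Fosb (0.27) above 82.4%, Jun (0.12) above 73.5% and Atf3 (0.45) above 69.7%. For Atf3 counting alone gives 0.36. These percentiles describe the libraries and carry no test.

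**Figure D3:**
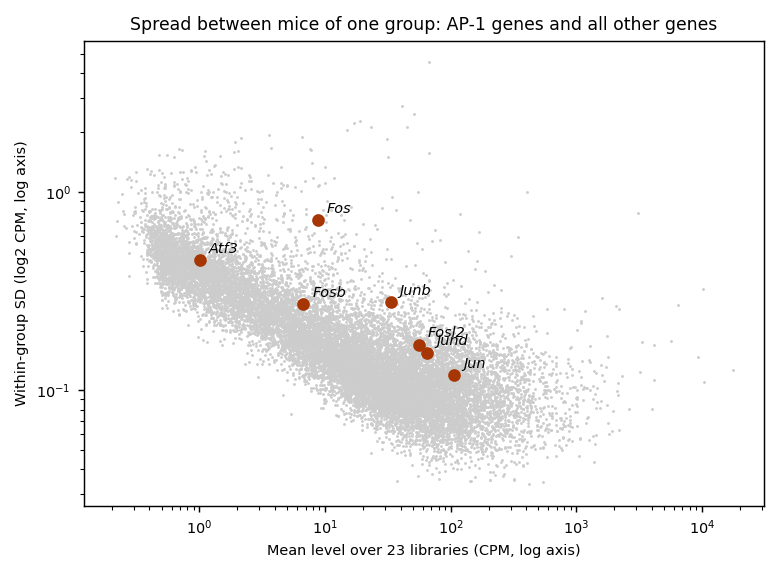
Pooled within-group SD of log2 CPM against mean level (both axes logarithmic) for 16555 genes (grey) and the AP-1 genes (brown). Fos, at an SD of 0.72, and Junb, at 0.28, lie at the upper edge of genes of like level, while Jun and Atf3 lie inside the cloud.

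Members rose and fell together in individual mice to differing degrees. After each group's mean was taken off, Fos and Junb correlated over 23 libraries with Pearson's r = 0.82 and Spearman's rho = 0.85 (permutation within groups, two-sided, p = 2e-05 and 3e-05, and 0.00042 and 0.00063 after Benjamini-Hochberg adjustment over 21 pairs). The value was 0.84 in the 8 untreated libraries and 0.81 in the 15 infused ones, and 0.74 without the 2 libraries farthest from the median of Fos. Fosb correlated with Jun at r = 0.68 and rho = 0.67 (permutation p = 0.0034 and 0.0053, adjusted 0.035 and 0.05), with 0.64 without its 2 extreme libraries. That relation did not hold within both sets, being -0.26 at 8 months and 0.84 at 10 months. Fos with Fosb gave r = 0.60 and rho = 0.58 (permutation p = 0.0067 and 0.0081, adjusted 0.047 and 0.05), with 0.67 at 8 months, 0.60 at 10 months and 0.61 without the extremes. Fosb with Junb gave r = 0.61 and rho = 0.64 (permutation p = 0.015 and 0.0095, adjusted 0.061 and 0.05), with 0.39 at 8 months, 0.70 at 10 months and 0.42 without the extremes. The other 17 pairs had adjusted p-values from 0.061 to 0.94 for Pearson's r. Libraries share handling and depth as well as the mouse, and which of these the members follow was not tested.

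**Figure D4:**
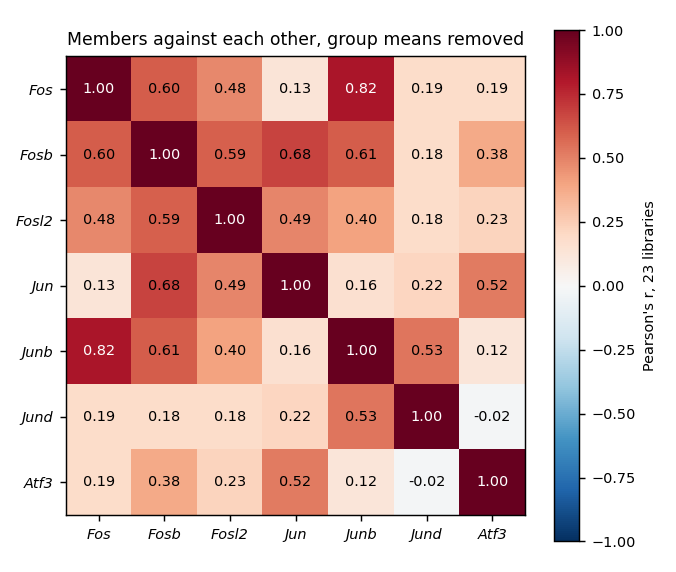
Pearson's r between AP-1 genes over 23 libraries after subtraction of group means from log2 CPM; red is positive and blue negative. Fos and Junb share the highest value (0.82), the block Fos, Fosb, Junb lies between 0.60 and 0.82, and Jund and Atf3 are at -0.02.

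The genes most like each member over the 23 libraries, out of 11650 with at least 5 CPM, were read by the same measure and carry no p because they are the highest of so many. Junb was most like Nr4a1 (r = 0.92), an activity-induced nuclear receptor, then Fos (0.82) and Arc (0.81), an activity-induced synaptic protein. Fos was most like Mcl1 (0.86), an anti-apoptotic BCL2 relative, Mad2l1 (0.83), a spindle checkpoint gene, and Junb. Fosl2 was most like Klhl32 (0.83), Nr4a2 (0.81), another activity-induced nuclear receptor, and Zdbf2 (0.80). Jund was most like Pycrl, Dbnl and Glrx5, all at 0.88. Fosb (Cox17, Zrsr1 and Plat, 0.73 to 0.78), Jun (Vps26c, Arid3a and Jakmip1, 0.73) and Atf3 (Abcc9, Vps18 and Amotl1, 0.71 to 0.72) had lower likeness.

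Replicate 4 of 3xTg-D was the lowest library of its group in all 7 members, at 3.04 CPM for Fos, 39.0 CPM for Fosl2 and 21.6 CPM for Junb. Its astrocyte (1456 CPM) and microglia (456 CPM) marker sums were the highest of the 23 libraries, whose ranges were 1104 to 1456 CPM and 289 to 456 CPM. Its slope on transcript length was 1.09 and its choroid plexus sum 55.8 CPM, both inside the range of the other libraries. Its meninges (69.9 CPM) and thalamus (45.8 CPM) sums were the lowest of its group, whose other libraries had 101 to 136 CPM and 49.8 to 83.5 CPM. The part of these values in its AP-1 levels was not tested.

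Around AP-1, the upstream kinases and factors were measured in full. All 23 listed genes of the ERK, JNK, p38, CaMK and RSK kinases and the SRF, ELK, CREB and MEF2 factors passed the filter, and edgeR called 0 of them in any comparison. In 3xTg-S 18 of 23 were lower than in 3xTg-D and 18 of 23 lower than in WT-D, beside 50.5% and 48.8% of all genes. At an unadjusted p under 0.05 these were 5 of 23 in each, where 5.51% and 7.88% of all genes were lower at that level. Between the strains 17 of 23 were lower in 3xTg-D than in WT-D and 16 of 23 in 3xTg-S than in WT-S, beside 51% and 48.8%. At that level 1 and 2 of 23 were lower there, beside 6.87% and 5.18%. In WT-S 13 of 23 were lower than in WT-D, beside 49.4%, and in 3xTg-8M 13 of 23 than in WT-8M, beside 48.7%. The inhibitor over both strains left 15 of 23 lower, beside 49.9%. At 8 months 4 of 23 were lower and 3 of 23 higher at that level, beside 8.82% and 8.55% of all genes, and with the inhibitor over both strains 5 of 23 were lower and 2 of 23 higher, beside 6.79% of all genes in each direction. Under vehicle the smallest p-values belonged to Camk4, a calcium-dependent kinase of CREB (log2 fold change -0.17, SE 0.07, adjusted p = 0.328), and Rps6ka5, which encodes the chromatin kinase MSK1 (0.12, SE 0.05, adjusted p = 0.357). DESeq2 called Camk4 and Mef2a, an activity-dependent factor, lower at 8 months and Mef2a lower after SCDi in 3xTg mice, and none of these was called by edgeR. Of 8 other family members and partners 5 could be tested in the vehicle groups and 0 were called in any comparison. At an unadjusted p under 0.05, 1 of 4 tested was lower (Atf7) and 1 higher (Jdp2) at 8 months. At that level 1 of 4 was lower for 3xTg-S versus 3xTg-D and 1 of 5 with the inhibitor over both strains, Atf2 in each. These stand beside the shares just given. Between 3xTg-D and WT-D the smallest p-values belonged to Jdp2 (-0.17, adjusted p = 0.453), a repressor of AP-1, and Atf4 (-0.06, adjusted p = 0.738), a stress-response factor. Of the 6 genes that govern decay of these transcripts and proteins 0 were called. At an unadjusted p under 0.05, 0 of them were lower in any comparison, and 1 of 6 was higher in 3xTg-D than in WT-D, in 3xTg-S than in WT-D and with the inhibitor over both strains, beside 6.25%, 9.01% and 6.79% of all genes. The smallest p-values under vehicle were those of Zfp36l1, which stood 0.34 higher on the log2 scale (SE 0.16, adjusted p = 0.378) and Zfp36, with 0.43 (SE 0.26, adjusted p = 0.527), both encoding proteins that bind AU-rich elements. DESeq2 likewise called 0 genes of the partner and turnover lists in any comparison.

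Among 18 genes known as targets of AP-1 or delta-FosB, 15 passed the filter and Vgf and Vim were called. Of the 15, 1 was called lower in 3xTg-D versus WT-D, 1 lower in 3xTg-S versus WT-S, and 1 lower and 1 higher in 3xTg-S versus WT-D. Of all genes 1.39%, 1.32% and 2.29% were called there. At an unadjusted p under 0.05 in edgeR the targets gave 2 lower and 3 higher, 4 lower and 2 higher, and 1 lower and 4 higher. All genes gave 6.87% and 6.25%, 5.18% and 5.43%, and 7.88% and 9.01%. Vgf, an activity-regulated neuropeptide precursor, stood at 124 to 132 CPM in WT-D and at 94.2 to 102 CPM in 3xTg-D. Every 3xTg-D library lay below every WT-D library, as 4% of 15528 genes did, and Vgf fell by 0.39 on the log2 scale (SE 0.05, adjusted p = 0.000619). It was also lower in 3xTg-S (88.6 to 113 CPM) than in WT-S (128 to 147 CPM), with -0.43 on the log2 scale (SE 0.08, adjusted p = 0.0353), and than in WT-D (-0.34, SE 0.07, adjusted p = 0.0259). The call beside WT-S was lost without replicate 1, 2 or 3 of WT-S or replicate 1, 3 or 4 of 3xTg-S (adjusted p up to 0.151), and that beside WT-D without replicate 1 or 2 of WT-D or replicate 1 of 3xTg-S (up to 0.104). At 8 months it was at 103 to 127 CPM in 3xTg-8M and 109.5 to 150.3 CPM in WT-8M, which overlapped (-0.17, adjusted p = 0.406). The dentate granule marker sums given earlier also reached lower in the 3xTg groups. Their ranges overlapped narrowly between 3xTg-D (up to 215 CPM) and WT-D (from 213 CPM), and between 3xTg-S (up to 218 CPM) and WT-D. They did not overlap between 3xTg-S and WT-S (from 245 CPM), nor between the strains at 8 months. The part of these sums in Vgf was not tested. Vim, an intermediate filament gene of reactive astrocytes and vessels, was higher in 3xTg-S (66.7 to 80.7 CPM) than in WT-D (35.3 to 52.3 CPM), by 0.76 (SE 0.12, adjusted p = 0.0015). The microglia (355 to 443 CPM and 301 to 342 CPM) and oligodendrocyte (4475 to 5204 CPM and 3220 to 4071 CPM) marker sums of 3xTg-S also lay above those of WT-D without overlap, and the astrocyte sums overlapped (1192 to 1405 CPM and 1104 to 1280 CPM). Their part in Vim was not tested. In 3xTg-D it was at 55.0 to 63.4 CPM (0.44, SE 0.10, adjusted p = 0.0582), which DESeq2 called (adjusted p = 0.00278) and edgeR called without replicate 4 of WT-D (adjusted p = 0.00791). DESeq2 also called Vim higher after SCDi in 3xTg mice and the cyclin gene Ccnd1 lower in 3xTg-D than in WT-D.

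**Figure D5:**
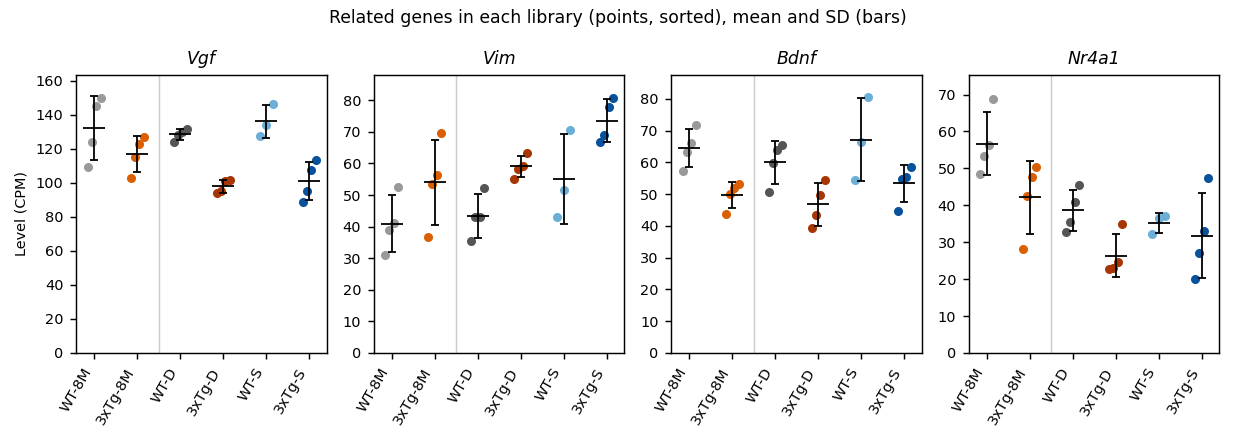
Level (CPM, linear axis from 0) of Vgf and Vim, known as AP-1 targets, and of Bdnf and Nr4a1, other activity-induced genes, in every library (points, sorted within a group), with a dash for the group mean and bars for the SD. Vgf lies at 94.2 to 102 CPM in 3xTg-D and at 124 to 132 CPM in WT-D.

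The other immediate-early genes gave a different count from the AP-1 members in the vehicle groups. Of 22 listed, 19 were lower in 3xTg-D than in WT-D, beside 51% of all genes, and 8 of them had an unadjusted p under 0.05, a level that 6.87% of all genes reached in that direction. edgeR called 0 of them and DESeq2 called 1, Nr4a1 (adjusted p = 0.00806), which edgeR also called without replicate 1 of 3xTg-D (adjusted p = 0.00863). Their median log2 fold change was -0.17, beside 0.01 for the 7 AP-1 members. The other comparisons gave smaller counts at that level. In 3xTg-S 14 of 22 were lower than in WT-S and 15 of 22 lower than in WT-D, beside 48.8% of all genes in each, with 2 of 22 at an unadjusted p under 0.05 in each, beside 5.18% and 7.88%. Beside 3xTg-D, 15 of 22 were higher in 3xTg-S and 1 reached that level, as 5.65% of all genes did. In WT the inhibitor left 15 of 22 lower, beside 49.4% of all genes, with 0 at that level. At 8 months 13 of 22 were lower, beside 48.7%, with 2 lower and 1 higher at that level, beside 8.82% and 8.55%. With the inhibitor over both strains 8 of 22 were lower, beside 49.9%, with 1 lower and 1 higher at that level, beside 6.79% each. For the interaction 18 of 22 were higher and 4 lower, where 49.4% of all genes were lower, with 0 at that level. The interaction uses the same vehicle libraries. Nr4a1 stood at 22.6 to 34.9 CPM in 3xTg-D and at 32.9 to 45.4 CPM in WT-D (-0.56, SE 0.14, adjusted p = 0.0800), and Bdnf, the activity-induced neurotrophin, at 39.3 to 54.5 CPM and 50.7 to 65.5 CPM (-0.37, SE 0.10, adjusted p = 0.131). At 8 months Bdnf was lower in 3xTg-8M (43.8 to 53.2 CPM) than in WT-8M (57.3 to 71.7 CPM), by -0.37 (SE 0.08, adjusted p = 0.0404), a call that was lost without any single library except replicate 1 of WT-8M (adjusted p 0.0644 to 0.113). The difference between the lists was not tested, and the groups overlapped for Nr4a1 and for Bdnf at 10 months. Nr4a1 and Arc of this list both followed Junb from mouse to mouse (r = 0.92 and 0.81). The 22 genes therefore need not be separate observations, and their counts carry no test. The dentate granule marker sums were 176 to 215 CPM in 3xTg-D and 213 to 281 CPM in WT-D. At 8 months they did not overlap, at 139 to 206 CPM in 3xTg-8M and 217 to 236 CPM in WT-8M. Their part in the levels of the immediate-early genes was not tested.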

How the data were processed

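RNA sequencing measured polyadenylated RNA of 23 hippocampi. According to the study's methods, the authors trimmed reads with Trimmomatic (0.35), aligned them with STAR (2.5.1b) to GRCm38 and counted reads per gene; the deposited values are raw counts per gene, not normalised or pooled. Strand setting and collapsing of molecular identifiers are not given in the sources used here. The 4 lines naming no gene (24.7% to 30.9% of reads) were left out.

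From the counts, a separate fit was made for every pair of groups with edgeR 4.0.16 in R 4.3.3 (filterByExpr, TMM, quasi-likelihood test, Benjamini-Hochberg over all genes, called at an adjusted p under 0.05). Inhibitor and interaction terms used the 15 libraries of 10 months. Standard errors were taken from the log2 fold change and the F statistic, and intervals are at 95%. Fits were tested on simulated data. CPM and RPKM (longest transcript of Gencode M21, GRCm38) use TMM factors over all 23 libraries, and deviations use log2 CPM with a prior count of 2. Gene positions are those of Gencode M21. Replicates are separate mice per the labels' animal numbers. The full genotype of the 3xTg strain is not reported here. Reads are not independent molecules, so counting errors cover counting only.

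Named genes are the 7 members in every comparison, and from the lists of partners, upstream kinases and factors, turnover genes, targets and other immediate-early genes those called in a comparison and the 2 with the smallest p per list in 3xTg-D versus WT-D; genes most like a member are the 3 with the highest r. Mef2a, Ccnd1, Atf2 and Atf7 were named after their values were seen. Marker lists for neurons, dentate granule cells, CA1, astrocytes, microglia, oligodendrocytes, blood, meninges, thalamus and choroid plexus come from general knowledge. The members and lists were chosen with earlier results of these data known.

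Alternatives were DESeq2 size factors, no filter, the likelihood ratio test of DESeq2 1.42.0, an unadjusted p under 0.01, a replicate block, removal of a length and GC trend (mgcv 1.9.3), 1 fit over all 10-month libraries, Spearman's rho for likeness and each library left out.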

Additional observations from a re-analysis of the deposited data

Results flagged for a closer look

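In 1 of 35 combinations of a member and a group of 4 libraries, a library stood far from the others. Fosl2 was at 39.0 CPM in replicate 4 of 3xTg-D while the other 3 libraries of that group were at 60.7 to 61.7 CPM. The gap to the nearest library was 0.954 of the whole range, above Dixon's 95% critical value for 4 samples. Chance flags about 1 in 20 such combinations. Without this library the log2 fold change of Fosl2 was 0.17 for 3xTg-D versus WT-D and -0.26 for 3xTg-S versus 3xTg-D (adjusted p = 0.281 and 0.299, edgeR), and neither was called. The interaction of strain and inhibitor reached an adjusted p under 0.05 in 0 of 7 members.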

How the results depend on the processing

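0 of 7 AP-1 members were called in each comparison under every alternative that was run, which covered 76 fits without 1 library and 51 other settings. No log2 fold change of a member was called, so the changes of sign listed here are between values within their error. Removal of the length and GC trend turned the sign of Junb to -0.0697 and Atf3 to -0.0391 for WT-S against WT-D, of Atf3 to -0.0101 for 3xTg-S against 3xTg-D, of Junb to -0.0149 for 3xTg-S against WT-D, of Jun to -0.00866, Junb to -0.000156 and Atf3 to -0.0205 for the inhibitor over both strains, and of Jund to -0.0167 for the interaction. For WT-S against WT-D, Junb was -0.00264 with DESeq2 size factors, -0.0128 with no filter and -0.00459 in DESeq2. With the replicate block, Fos became 0.13 and Fosb 0.0542 for WT-S against WT-D, and Junb -0.0119 for 3xTg-S against WT-S. The cause was not tested.

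The block stands for runs of 4 consecutive animal numbers; same-run libraries of different groups correlated in their deviations at r from -0.22 to 0.19 (median 0.01, 21 pairs), so the numbers share only a run and do not pair the mice. For 3xTg-S against WT-S the count of all genes called moved from 206 to 78 under the block. Under the block Nr4a1 was called for 3xTg-D against WT-D (adjusted p = 0.0379) and Vgf was not for 3xTg-S against WT-S (adjusted p = 0.295).

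Leaving out each library in turn, the members whose log2 fold change changed sign moved as follows. For 3xTg-8M against WT-8M, Atf3 went from -0.24 to 0.12, Fosl2 from -0.0217 to 0.0647 and Junb from -0.18 to 0.0593. For 3xTg-D against WT-D, Fos went from -0.32 to 0.27, Fosb from -0.18 to 0.0944, Fosl2 from -0.0162 to 0.17, Jun from -0.0442 to 0.0803 and Jund from -0.0287 to 0.0772. For 3xTg-S against 3xTg-D, Atf3 went from -0.0885 to 0.25, Fosb from -0.28 to 0.0035, Jun from -0.11 to 0.022 and Junb from -0.00247 to 0.32. For WT-S against WT-D, Atf3 went from -0.42 to 0.30, Fos from -0.56 to 0.19, Fosb from -0.11 to 0.0627 and Junb from -0.0358 to 0.038. For 3xTg-S against WT-S, Junb went from -0.11 to 0.21 and Jund from -0.0588 to 0.0987. For 3xTg-S against WT-D, Fos went from -0.14 to 0.76, Jun from -0.0884 to 0.0199 and Junb from -0.10 to 0.20. For the inhibitor over both strains, Atf3 went from -0.0931 to 0.14, Fos from -0.12 to 0.37, Jun from -0.00248 to 0.0704 and Junb from -0.000198 to 0.16. For the interaction of strain and inhibitor, Atf3 went from -0.24 to 0.48, Fosb from -0.26 to 0.0263, Fosl2 from -0.0488 to 0.14, Junb from -0.00345 to 0.32 and Jund from -0.0792 to 0.0773.

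Without a change of sign, Fos went from -0.71 to -0.28 for 3xTg-8M against WT-8M, from 0.0097 to 0.73 for 3xTg-S against 3xTg-D, from 0.0974 to 0.90 for 3xTg-S against WT-S and from 0.25 to 1.05 for the interaction, and Atf3 from 0.26 to 0.75 for 3xTg-D against WT-D, 0.24 to 0.95 for 3xTg-S against WT-S and 0.31 to 0.81 for 3xTg-S against WT-D. For 3xTg-D against WT-D, Junb went from -0.26 to -0.0103, and Fosb went from -0.32 to -0.0649 for 3xTg-S against WT-D and from -0.29 to -0.0361 for 3xTg-S against WT-S.

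Of the other genes, Vgf was called for 3xTg-D against WT-D in 15 of 15 alternatives and Vim for 3xTg-S against WT-D in 15 of 15. Vgf lost its call for 3xTg-S against WT-S in 7 of 14 (6 of them without 1 library, log2 fold change -0.49 to -0.37 over all such fits) and for 3xTg-S against WT-D in 3 of 15 (-0.40 to -0.29). Bdnf lost its call at 8 months in 7 of 12, each without 1 library (-0.43 to -0.32). Nr4a1 and Vim passed the threshold for 3xTg-D against WT-D in 5 of 15 alternatives each and Bdnf in 2 of 15. Without a filter, more genes were called, with 854 against 399 genes for 3xTg-8M against WT-8M, 792 against 216 for 3xTg-D against WT-D, 729 against 206 for 3xTg-S against WT-S, 112 against 0 for 3xTg-S against 3xTg-D, 1135 against 356 for 3xTg-S against WT-D, 2 against 0 for WT-S against WT-D, and 94 and 8 against 0 for the inhibitor term and the interaction. DESeq2 called 718, 402, 298, 15, 587, 0, 43 and 0. By Spearman's rho the 3 genes most like a member changed for 6 of 7 members. Depth limits Atf3, at 6 to 38 counts.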
